A study of Homo sapiens with 9 samples.

Results

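EGR1, EGR2, EGR3, IER2, IER3, KLF4, KLF6, KLF10, ZFP36 and BTG2 are immediate-early genes, switched on within minutes of a growth signal without new protein synthesis, and they were followed on 9 expression arrays in which MED23 or ELK1 had been knocked down. The 10 genes were chosen by name, and every probe set that the platform annotation pairs with exactly 1 of them was read. This gave 15 probe sets for 8 of the 10 genes, out of 19775 genes with such a probe set. EGR2 and BTG2 had none in that annotation and were not analysed here. EGR1, KLF4 and KLF6 had more than 1 probe set each, and for these the brightest over the 9 arrays stands for the gene unless another is named. Genes with a mean log2 signal under 6.05 were left out of the tests, which kept 7 of the 8 genes and left out EGR3.

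A549, an established line from a human lung adenocarcinoma, was grown in medium with 10% serum under 5% CO2 and harvested without treatment. The si-Ctrl group has 3 arrays of cells with a control oligo, the si-Med23 group 3 arrays with RNA interference oligos A, B and C against MED23, and the si-Elk1 group 3 arrays with oligos A, B and C against ELK1. Each knockdown replicate is thus a separate line with an oligo of its own, so the spread within a knockdown includes differences between oligos and lines. Whether the control arrays stand for separate cultures is not stated, so p-values measure the spread between these arrays, and that spread may be technical. The series asks where lung cancer cells need MED23, and the arrays show which transcripts differ when either factor is reduced.

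In the classical serum response, ERK phosphorylates ELK1, which sits with serum response factor (SRF) on a DNA element called the CArG box, and phosphorylated ELK1 can contact MED23, a tail subunit of the Mediator complex, to recruit RNA polymerase II. EGR1 is a textbook target of this route. The genes followed here encode zinc finger transcription factors of the EGR and KLF families, the small proteins IER2 and IER3, and ZFP36 (tristetraprolin), which binds AU-rich elements and speeds the decay of short-lived messenger RNAs. The cells were harvested without treatment from medium with serum, so the arrays report levels in that medium and not an induction.

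The 250 bases upstream of the RefSeq gene start are shown for EGR1, the model target, and for ZFP36, KLF4 and KLF6, the genes called in the si-Elk1 comparison. They read 5′ to 3′ on the strand of the gene in build GRCh38.p14. Capitals mark CArG boxes and the ETS core GGAAG on either strand, where it reads CTTCC if it lies on the other strand.
EGR1, chr5:138465229-138465478, plus strand: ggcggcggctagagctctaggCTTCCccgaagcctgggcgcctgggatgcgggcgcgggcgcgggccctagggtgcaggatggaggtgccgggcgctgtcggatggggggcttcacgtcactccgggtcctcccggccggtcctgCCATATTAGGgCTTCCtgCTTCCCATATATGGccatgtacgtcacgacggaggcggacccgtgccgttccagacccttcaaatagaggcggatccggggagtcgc
ZFP36, chr19:39406597-39406846, plus strand: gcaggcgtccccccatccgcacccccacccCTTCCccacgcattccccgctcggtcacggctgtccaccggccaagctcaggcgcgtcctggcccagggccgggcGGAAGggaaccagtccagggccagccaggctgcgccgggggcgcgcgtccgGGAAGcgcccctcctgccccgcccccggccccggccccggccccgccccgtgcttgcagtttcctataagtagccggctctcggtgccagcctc
KLF4, chr9:107489770-107490019, minus strand: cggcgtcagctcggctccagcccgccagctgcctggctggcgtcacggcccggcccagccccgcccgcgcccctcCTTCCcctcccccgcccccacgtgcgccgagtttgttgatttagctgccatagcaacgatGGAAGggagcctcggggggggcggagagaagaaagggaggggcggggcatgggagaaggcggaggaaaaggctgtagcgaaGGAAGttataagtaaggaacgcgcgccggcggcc
KLF6, chr10:3785210-3785459, minus strand: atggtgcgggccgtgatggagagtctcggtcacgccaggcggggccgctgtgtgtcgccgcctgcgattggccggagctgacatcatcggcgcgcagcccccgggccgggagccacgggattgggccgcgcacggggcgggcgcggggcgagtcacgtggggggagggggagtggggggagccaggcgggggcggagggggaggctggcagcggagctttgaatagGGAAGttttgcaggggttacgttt

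The EGR1 window held 2 CArG boxes, CCATATTAGG at 105 to 96 bases and CCATATATGG at 83 to 74 bases before the start. CTTCC lay between them at 94 to 90 bases, and again at 87 to 83 bases, where it shares its last base with the second box. A CArG box occurred in 1.16% of 35116 RefSeq windows of this length, and in none of the windows of ZFP36, KLF4, KLF6 and IER2, the other measured genes with an entry in the sequence table. GGAAG occurred in each of these 5 windows, but also in 65.1% of all windows. The longer ETS motif CCGGAA, searched on both strands and able to overlap GGAAG, was present in 14.5% of all windows and here only in that of IER2, as TTCCGG at 26 to 21 bases before the start. A match is a description of letters, and elements beyond these windows were not searched.

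The targeted transcripts were checked first. MED23 read 9.27, 9.05 and 9.08 on the log2 scale in si-Ctrl and 6.79, 6.19 and 7.06 with oligos A, B and C of si-Med23. ELK1 read 9.36, 9.61 and 9.29 in si-Ctrl and 7.07, 7.15 and 7.83 in si-Elk1. In si-Elk1 MED23 read 8.87, 9.02 and 8.18, all below the controls (73.6% of the control signal, limma adjusted p = 0.325). In si-Med23 ELK1 read 9.98, 10.36 and 9.54 (145% of the control signal, limma adjusted p = 0.123). For each gene this is the brightest probe set, of 5 for MED23 and of 3 for ELK1. Of 5 epithelial markers (KRT8, KRT18, KRT19, EPCAM and CDH1), all 5 lay above the filter level on every array, with summed signals of 50031 to 55121 in si-Ctrl, 65609 to 93389 in si-Med23 and 53938 to 66840 in si-Elk1. Of 5 blood and endothelial markers with a probe set, 1 did so, PECAM1, while CD3E did on 7 arrays and VWF, PTPRC and CDH5 on 0, and the sums were 282 to 441, 221 to 395 and 406 to 441. The poly-A spikes, bacterial transcripts added before labelling, had mean log2 signals of 7.43 to 7.82 in si-Ctrl, 9.08 to 9.31 in si-Med23 and 7.92 to 8.46 in si-Elk1, and the hybridization controls read 11.78 to 11.90, 12.26 to 12.37 and 11.90 to 12.07. The part of these controls in the results was not tested. Directions below are relative to the deposited scaling, in which the 2% trimmed mean is 500 on each array, and the last paragraphs give them under other scalings.

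**Figure D1:**
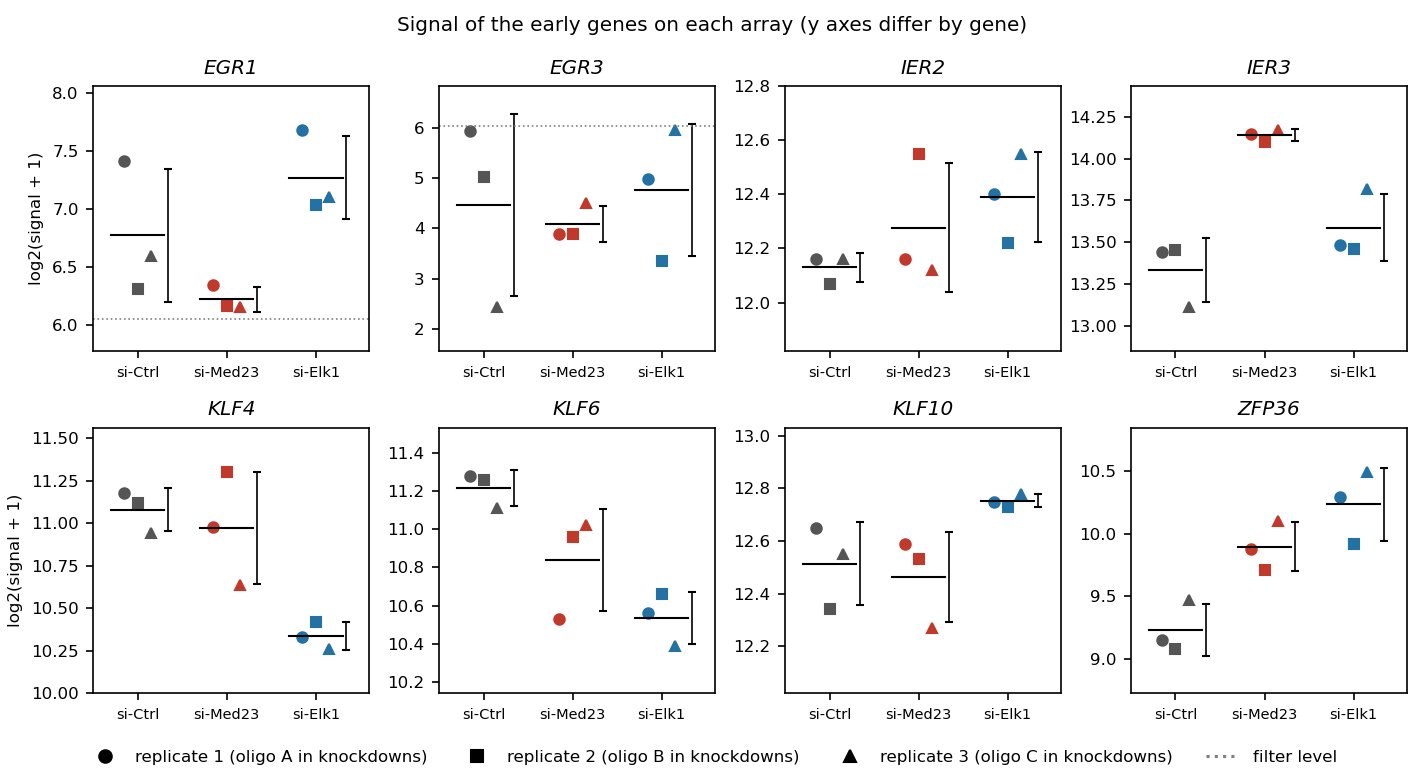
Each panel plots log2(signal + 1) of 1 gene (y axis, range set per gene) on the 9 arrays, by group (x axis) on the deposited scaling, with marker shape for the replicate number, a line for the group mean and a bar for its SD. All 3 si-Med23 arrays lie above all others for IER3, all 3 si-Elk1 arrays lie below all others for KLF4, and both knockdowns lie above si-Ctrl for ZFP36.

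With ELK1 knocked down, KLF4 and KLF6 fell and ZFP36 rose, each in the same direction under all scalings tried. EGR1, the textbook ELK1 target, had positive log2 fold changes of 0.50, 0.75 and 0.94 on its 3 probe sets, which did not pass, and the first became -0.14 when scaled on the poly-A spikes. By limma with Benjamini-Hochberg adjustment over the 12616 genes tested, 1 of the 7 genes rose in si-Elk1 and 2 fell, where 4.26% of all genes tested were called (3.07% higher and 1.19% lower). The share called among the 7 is above that background, but the adjusted p-values of both genes that fell were just under 0.05. For 6 of the 7 genes all si-Elk1 arrays lay on one side of all control arrays, 4 higher and 2 lower, beside 36.3% of all genes (21.1% higher and 15.1% lower). The median log2 fold change was 0.25 over the 7 and 0.05 over all genes tested.

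KLF4, a zinc finger factor that restrains proliferation and promotes epithelial differentiation, read 11.18, 11.12 and 10.94 (log2) in si-Ctrl and 10.33, 10.42 and 10.26 in si-Elk1. The highest si-Elk1 array thus lay below the lowest control array. KLF4 fell by 0.74 ± 0.17 on the log2 scale (SE, n = 3 arrays per group; limma adjusted p = 0.0497), to 59.8% of the control signal. Its dimmer probe set 220266_s_at read 6.64, 6.67 and 7.78 in si-Ctrl and 4.26, 6.91 and 4.68 in si-Elk1, so there oligo B overlapped the controls, and oligos A and C lay below the filter level. The log2 difference of that probe set was -1.74 (interval -3.45 to -0.04; limma adjusted p = 0.418 over all probe sets). On the same adjustment the brighter probe set did not pass either (limma adjusted p = 0.274).

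KLF6, another Krüppel-like zinc finger factor, read 11.28, 11.26 and 11.11 in si-Ctrl and 10.56, 10.66 and 10.39 in si-Elk1, again with no overlap. It fell by 0.68 ± 0.16 on the log2 scale (limma adjusted p = 0.0493), to 62.4% of the control signal. Probe sets 224606_at, 208961_s_at and 208960_s_at had log2 fold changes of -0.67, -0.49 and -0.64, and on each of them all 3 si-Elk1 arrays lay below all controls. The fifth, 211610_at, went the other way: it read 6.53, 7.10 and 6.38 in si-Ctrl and 7.23, 7.48 and 7.47 in si-Elk1, a log2 fold change of 0.73. No KLF6 probe set passed when adjusted over all probe sets (limma adjusted p = 0.282 to 0.516), and what sets 211610_at apart was not tested.

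ZFP36 read 9.15, 9.08 and 9.47 in si-Ctrl and 10.29, 9.92 and 10.49 with si-Elk1 oligos A, B and C. Every si-Elk1 array lay above every control array. ZFP36 rose 2.00-fold, by 1.00 ± 0.19 on the log2 scale (limma adjusted p = 0.0262). Adjusted over all probe sets it did not pass (limma adjusted p = 0.194).

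KLF10, a factor induced by TGF-beta, read 12.65, 12.34 and 12.55 in si-Ctrl and 12.75, 12.73 and 12.78 in si-Elk1. IER2, a nuclear protein with a short-lived transcript, read 12.16, 12.07 and 12.16 in si-Ctrl and 12.40, 12.22 and 12.55 in si-Elk1. IER3, which modulates survival and ERK signalling, read 13.44, 13.45 and 13.11 against 13.48, 13.46 and 13.82. In these 3 genes the si-Elk1 arrays lay above all controls, but by little: the log2 fold changes were 0.24, 0.26 and 0.25, with 95% intervals of -0.06 to 0.54, -0.08 to 0.59 and -0.08 to 0.59, and none passed (limma adjusted p = 0.278, 0.307 and 0.300). EGR1 read 7.41, 6.31 and 6.59 in si-Ctrl and 7.68, 7.03 and 7.10 in si-Elk1, with si-Ctrl replicate 1 higher than oligos B and C of si-Elk1. Its log2 fold change of 0.50 had an interval of -0.14 to 1.15 (limma adjusted p = 0.295).

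The si-Elk1 calls rested on all arrays together. KLF4 was no longer called without si-Ctrl replicate 1, 2 or 3 (limma adjusted p = 0.138, 0.123 and 0.108), without si-Elk1 oligo A, B or C (0.103, 0.0800 and 0.111) and without si-Med23 oligo A (0.0685), which enters through the shared spread. KLF6 lost it without the same control arrays (0.138, 0.124 and 0.116), without si-Elk1 oligo A, B or C (0.0961, 0.0727 and 0.109) and without si-Med23 oligo B or C (0.0613 and 0.0523). For ZFP36 the call ended without si-Ctrl replicate 1, 2 or 3 (0.0855, 0.0866 and 0.0586) and also without si-Elk1 oligo A or C (0.0742 and 0.0664). Over all alternatives the adjusted p ran from 0.0126 to 0.274 for KLF4, from 0.0144 to 0.282 for KLF6 and from 0.00604 to 0.212 for ZFP36, with the fold change on the same side of 0 each time.

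**Figure D2:**
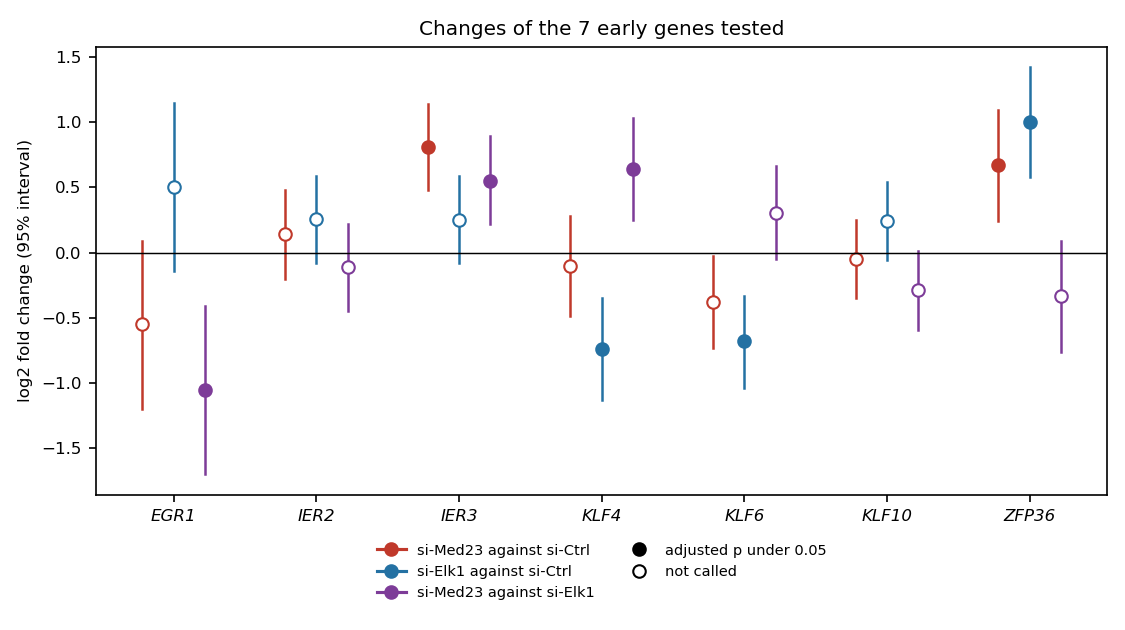
Log2 fold changes (y axis) of the 7 genes tested (x axis) in the 3 comparisons, with 95% intervals from limma and filled points where the adjusted p was under 0.05. Of the comparisons with si-Ctrl, ZFP36 is filled in both, KLF4 and KLF6 only in that of si-Elk1, and IER3 only in that of si-Med23. The test between the knockdowns is the violet point, filled for EGR1, IER3 and KLF4.

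With MED23 knocked down, IER3 and ZFP36 rose on the deposited scaling (both turn to lower when scaled on the poly-A spikes), while EGR1, IER2, KLF4, KLF6 and KLF10 were not called. Of the 7 genes, 2 rose in si-Med23 and 0 fell by limma with adjustment over all genes, and 3 had an unadjusted p under 0.05, KLF6 being the third, with a negative change. In that comparison 39.8% of all genes tested were called, 20.3% higher and 19.5% lower, so 2 of 7 is below the background share. All si-Med23 arrays lay beyond all controls for 3 of the 7 genes, 2 higher and 1 lower, beside 57.3% of all genes (31.7% higher and 25.6% lower). The median log2 fold change was -0.05 over the 7 and 0.09 over all genes tested.

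IER3 read 13.44, 13.45 and 13.11 in si-Ctrl and 14.15, 14.10 and 14.17 in si-Med23, so the 3 MED23 oligos gave nearly the same signal and all lay above the controls. It rose 1.75-fold, by 0.81 ± 0.15 on the log2 scale (SE, n = 3 arrays per group; limma adjusted p = 0.00471), and kept its call when any single array was left out. ZFP36 read 9.88, 9.71 and 10.10 in si-Med23 beside 9.15, 9.08 and 9.47 in si-Ctrl, with no overlap. It rose 1.59-fold, by 0.67 ± 0.19 (limma adjusted p = 0.0219). Leaving out si-Ctrl replicate 1 or 2 ended that call (limma adjusted p = 0.0666 and 0.0706), as did leaving out oligo A or C of si-Med23 (0.0506 and 0.0674). Over all alternatives its adjusted p ran from 0.00236, where the poly-A spike scaling reversed it, to 0.473.

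KLF6 read 10.53, 10.96 and 11.02 with si-Med23 oligos A, B and C, all below the lowest control signal of 11.11, and oligo A stood lowest. Its log2 fold change was -0.38 ± 0.16 (limma adjusted p = 0.0816), and probe set 224606_at gave -0.43, also with no overlap, while 208961_s_at, 208960_s_at and 211610_at gave 0.03, 0.13 and 0.00. KLF4 read 10.98, 11.30 and 10.64, on both sides of the controls (log2 fold change -0.10, interval -0.49 to 0.28, adjusted p = 0.652). IER2 read 12.16, 12.55 and 12.12, with oligo B above the rest (0.14, interval -0.20 to 0.48, adjusted p = 0.470). KLF10 read 12.59, 12.53 and 12.27, within the spread of the controls apart from oligo C (-0.05, interval -0.35 to 0.25, adjusted p = 0.798). Without si-Med23 oligo C the log2 fold changes of KLF4 and KLF10 changed sign, to 0.06 and 0.05, and without si-Ctrl replicate 1 that of KLF10 became 0.02.

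EGR1 in si-Med23 read 6.34, 6.16 and 6.15 on its brightest probe set, near the filter level of 6.05, beside 7.41, 6.31 and 6.59 in si-Ctrl. The log2 fold change was -0.55 ± 0.28 (interval -1.20 to 0.09; limma adjusted p = 0.150), and si-Ctrl replicate 1 was the control that stood highest. Without that array the change was -0.23 (adjusted p = 0.441), and without si-Ctrl replicate 2 it was -0.78 (0.0700). Probe set 201694_s_at read 6.93, 6.05 and 5.76 in si-Med23 and 6.73, 6.56 and 6.47 in si-Ctrl, with oligo A above all controls. Probe set 201693_s_at read 5.92, 4.40 and 3.61 in si-Med23, all below the filter level, and 6.19, 5.21 and 5.66 in si-Ctrl. The 3 log2 fold changes were -0.55, -0.34 and -1.04, and none passed.

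EGR3, an EGR family factor, lay below the filter level on all 9 arrays. Its log2 signals were 5.94, 5.02 and 2.43 in si-Ctrl, 3.88, 3.89 and 4.51 in si-Med23 and 4.99, 3.35 and 5.96 in si-Elk1. The groups overlap widely, and no difference was detectable at this signal.

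**Figure D3:**
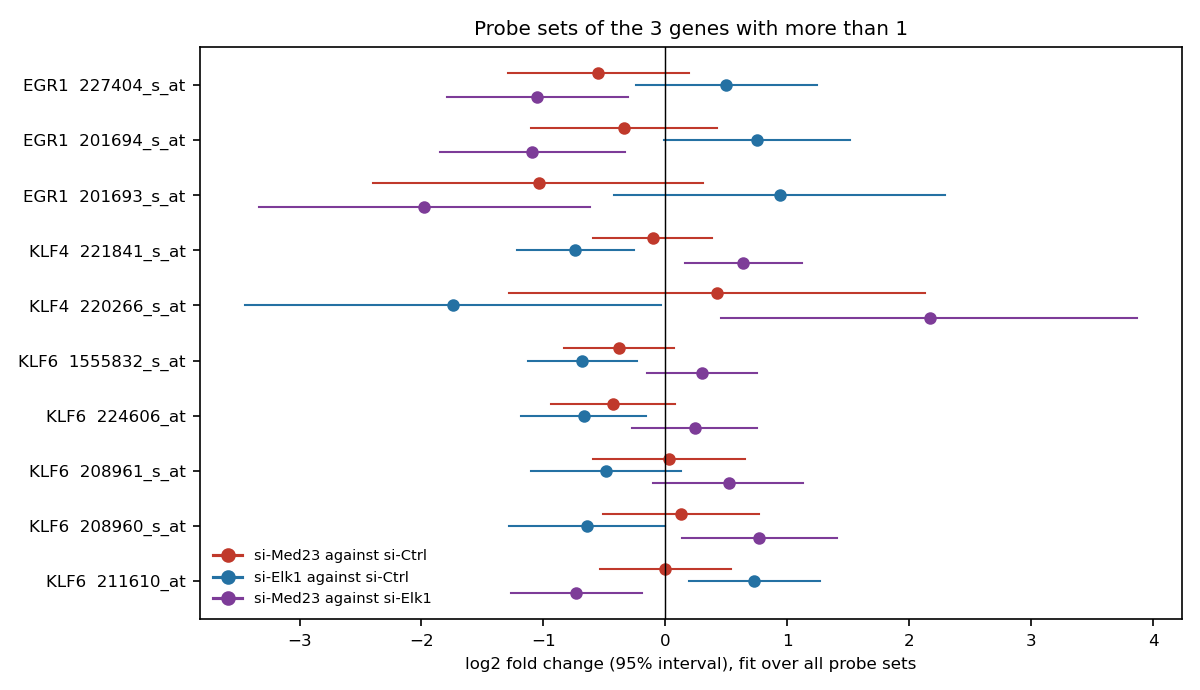
Log2 fold changes with 95% intervals (x axis) for each probe set of EGR1, KLF4 and KLF6 (y axis) in the 3 comparisons, from a fit over all probe sets. The 3 EGR1 probe sets share their signs, as do 4 of the 5 of KLF6 in si-Elk1, whereas 211610_at lies on the other side of 0 at 0.73.

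The direct comparison of the knockdowns tests whether these genes differ between loss of MED23 and loss of ELK1. Of the 7, 2 were higher (IER3 and KLF4, both negative, and not called, with the poly-A spike scaling) and 1 was lower (EGR1) in si-Med23 than in si-Elk1, beside 21.7% of all genes called (9.54% higher and 12.2% lower). The arrays of the knockdowns did not overlap for 4 of the 7 genes, 2 higher and 2 lower, beside 38.0% of all genes (18.5% higher and 19.5% lower). EGR1 had the largest change among the 7, at -1.05 ± 0.28 on the log2 scale (limma adjusted p = 0.0336), which is 48.2% of its si-Elk1 signal. All 3 si-Med23 arrays (6.34, 6.16 and 6.15) lay below all 3 si-Elk1 arrays (7.68, 7.03 and 7.10). The other EGR1 probe sets, 201694_s_at and 201693_s_at, gave -1.09 and -1.98, also with no overlap. On these, 2 and 3 of the 3 si-Med23 arrays lay below the filter level. The gap on 201694_s_at was narrow, with si-Med23 up to 6.93 and si-Elk1 from 6.96. Adjusted over all probe sets none of the 3 passed (limma adjusted p = 0.125, 0.123 and 0.119). IER3 was 1.47-fold higher in si-Med23, with a log2 difference of 0.55 ± 0.15 (limma adjusted p = 0.0313). KLF4 was 1.56-fold higher in si-Med23, with a log2 difference of 0.64 ± 0.17 (limma adjusted p = 0.0327), and its other probe set gave 2.17, with an overlap between oligo A of si-Med23 and oligo B of si-Elk1.

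These calls between the knockdowns also needed nearly all arrays. EGR1 kept its call without si-Elk1 oligo C or any 1 control array, and lost it without si-Med23 oligo A, B or C (adjusted p = 0.0653, 0.0856 and 0.0759) or si-Elk1 oligo A or B (0.110 and 0.0678). IER3 was no longer called without si-Med23 oligo A, B or C (0.0722, 0.0706 and 0.0691) or si-Elk1 oligo A or B (0.106 and 0.105). For KLF4 the same held for si-Ctrl replicate 1 or 2 (0.0508 and 0.0523), si-Med23 oligo A or B (0.0752 and 0.0824) or si-Elk1 oligo A or B (0.0947 and 0.0769). Over all alternatives the adjusted p ran from 8.81e-04 to 0.125 for EGR1, from 0.00205 to 0.228 for IER3 and from 0.00350 to 0.221 for KLF4. KLF6, KLF10, ZFP36 and IER2 were not called, with log2 differences of 0.30, -0.29, -0.33 and -0.11 and intervals of -0.05 to 0.66, -0.59 to 0.01, -0.76 to 0.09 and -0.45 to 0.22.

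The mean levels of each gene can be put in order across the 3 groups. ZFP36 went from 9.23 ± 0.21 (SD, n = 3) in si-Ctrl through 9.90 ± 0.20 in si-Med23 to 10.23 ± 0.29 in si-Elk1, and the difference between the knockdowns did not pass. KLF6 went from 11.22 ± 0.09 in si-Ctrl through 10.84 ± 0.27 in si-Med23 to 10.54 ± 0.14 in si-Elk1, where neither step between neighbours passed. KLF4 was at 11.08 ± 0.12 in si-Ctrl and 10.98 ± 0.33 in si-Med23, a difference that did not pass, and at 10.34 ± 0.08 in si-Elk1. IER3 was at 13.33 ± 0.19 in si-Ctrl and 13.59 ± 0.20 in si-Elk1, which did not pass either, and at 14.14 ± 0.04 in si-Med23. EGR1 was lowest in si-Med23 (6.22 ± 0.11), then si-Ctrl (6.77 ± 0.57), then si-Elk1 (7.27 ± 0.36), and of these 3 differences only that between the knockdowns passed. For IER2 (12.13 ± 0.05, 12.27 ± 0.24 and 12.39 ± 0.16 in si-Ctrl, si-Med23 and si-Elk1) and KLF10 (12.51 ± 0.16, 12.46 ± 0.17 and 12.75 ± 0.02) no pair of groups passed.

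The transcripts of factors that act on serum-response promoters also changed in si-Med23. Of the 6 genes ELK1, ELK3, ELK4, SRF, MRTFA and MRTFB, 2 rose and 3 fell in si-Med23 (83.3% called, beside 39.8% of all genes, 20.3% higher and 19.5% lower). In si-Elk1 ELK1 fell and the other 5 did not pass. ELK1 is the gene its oligos target, so the 16.7% called, beside 4.26% of all genes, follows from the design. The ELK1 relatives ELK4 and ELK3 had log2 fold changes of -1.67 ± 0.32 and -1.02 ± 0.27 in si-Med23 (limma adjusted p = 0.00544 and 0.0172), and the SRF coactivator MRTFB fell by 0.99 ± 0.24 (0.0130). SRF rose by 0.60 ± 0.20 (0.0412) and the coactivator MRTFA by 0.66 ± 0.15 (0.0105), but both turned to lower with the poly-A spikes (-1.01 and -0.95) and were not called with the hybridization controls (0.10 and 0.17). Between the knockdowns ELK4 was lower in si-Med23 by -1.29 ± 0.32 (limma adjusted p = 0.0259), and ELK1 was higher there by 2.61 ± 0.26 (0.00267), as the ELK1 oligos lower it. In si-Elk1 the log2 fold changes of SRF, ELK3, ELK4, MRTFA and MRTFB were 0.16, -0.31, -0.38, 0.25 and -0.36.

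Of 19 relatives of the early genes (EGR4, the EGR corepressors NAB1 and NAB2, further KLF, IER5, ZFP36 and BTG family genes and TOB1 and TOB2), 3 rose and 1 fell in si-Med23, 2 rose and 0 fell in si-Elk1, and 1 was higher and 4 lower between the knockdowns. These are 21.1%, 10.5% and 26.3% of the list, beside 39.8%, 4.26% and 21.7% of all genes tested. In si-Elk1 these were IER5L, an IER5 family gene (0.96 ± 0.13, limma adjusted p = 0.00817), and BTG1, an antiproliferative partner of messenger RNA deadenylation and a paralog of BTG2 (0.73 ± 0.10, adjusted p = 0.0112). With the poly-A spikes they were 0.32 and 0.10 and not called (adjusted p = 0.230 and 0.717). In si-Med23 they were KLF13 (0.73 ± 0.15), BTG1 (0.48 ± 0.10), IER5 (0.64 ± 0.14) and KLF7 (-0.81 ± 0.19), with adjusted p-values of 0.00705, 0.00843, 0.010 and 0.0113. The first 3 of these changed sign with the poly-A spikes, and with the hybridization controls they were 0.24, -0.01 and 0.14 and not called. On the deposited scaling BTG1, like ZFP36, was thus higher in both knockdowns, which share their control arrays. Between the knockdowns IER5L (-0.73 ± 0.13), TOB1 (-0.44 ± 0.11) and KLF7 (-0.68 ± 0.19) were lower in si-Med23 and IER5 (0.56 ± 0.14) was higher, though -0.41 with the poly-A spikes and not called with the hybridization controls (0.25) or quantile normalization (0.45). With median centring TOB1 and KLF7 were -0.08 and -0.32 and not called, and KLF7 also lost its call with quantile normalization (adjusted p = 0.0620). The fourth lower gene was BTG3 (-0.36 ± 0.10, but 0.01 with median centring), named after its values were seen. The median log2 fold changes of the list were -0.02, 0.17 and -0.26 in the 3 comparisons, beside 0.09, 0.05 and -0.03 for all genes.

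Of 29 other immediate-early genes 25 were tested. In si-Med23 9 rose and 1 fell (NR4A2, a nuclear receptor, by 0.53 ± 0.17), with a median log2 fold change of 0.31. That is 40.0% of the list, close to the 39.8% of all genes. In si-Elk1 2 rose and 1 fell, 12% beside 4.26% of all genes, with a median of 0.22. The log2 fold change of NR4A2 in si-Med23 was -0.30 and -0.37, not called, with median centring and quantile normalization. FOSL2, an AP-1 subunit, rose in si-Med23 by 1.03 ± 0.11, the small MAF factor MAFF by 0.96 ± 0.15, the NF-kB inhibitor TNFAIP3 by 1.42 ± 0.26 and JUNB, another AP-1 subunit, by 1.15 ± 0.24 (limma adjusted p from 0.00184 to 0.00764). All 9 changed sign with the poly-A spikes, when 0 of the 25 rose and 23 fell, and with the hybridization controls 3 rose and 6 fell. Over all genes 94.3% and 44.5% were called in si-Med23 with these scalings. In si-Elk1 the kinase gene SGK1 rose by 0.98 ± 0.12 (adjusted p = 0.00684) and the stress gene GADD45B by 0.70 ± 0.15 (0.0381), and CCN2, a matrix signalling protein, fell by 0.67 ± 0.13 (0.0316). With the poly-A spikes SGK1 and GADD45B were 0.34 and 0.06 and not called (adjusted p = 0.242 and 0.824), and GADD45B also lost its call with median centring (0.0718) and the hybridization controls (0.0956). Between the knockdowns 8 were higher and 3 lower in si-Med23 (44.0% called, beside 21.7% of all genes, median 0.15), with FOSL2 (0.77 ± 0.11) and CCN2 (0.83 ± 0.13) higher and NR4A2 (-1.18 ± 0.17) and SGK1 (-0.82 ± 0.12) lower. The third lower gene, named after its values were seen, was the ERK phosphatase gene DUSP6 (-0.44 ± 0.12, but -0.07 and not called with median centring). All 8 genes called higher changed sign with the poly-A spikes, FOSL2 and CCN2 to -0.20 and -0.15. Of the 25, 0 were then called higher and 15 lower, and with the hybridization controls 2 were higher and 6 lower. Over all genes 81.3% and 34.1% were called between the knockdowns with these scalings.

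**Figure D4:**
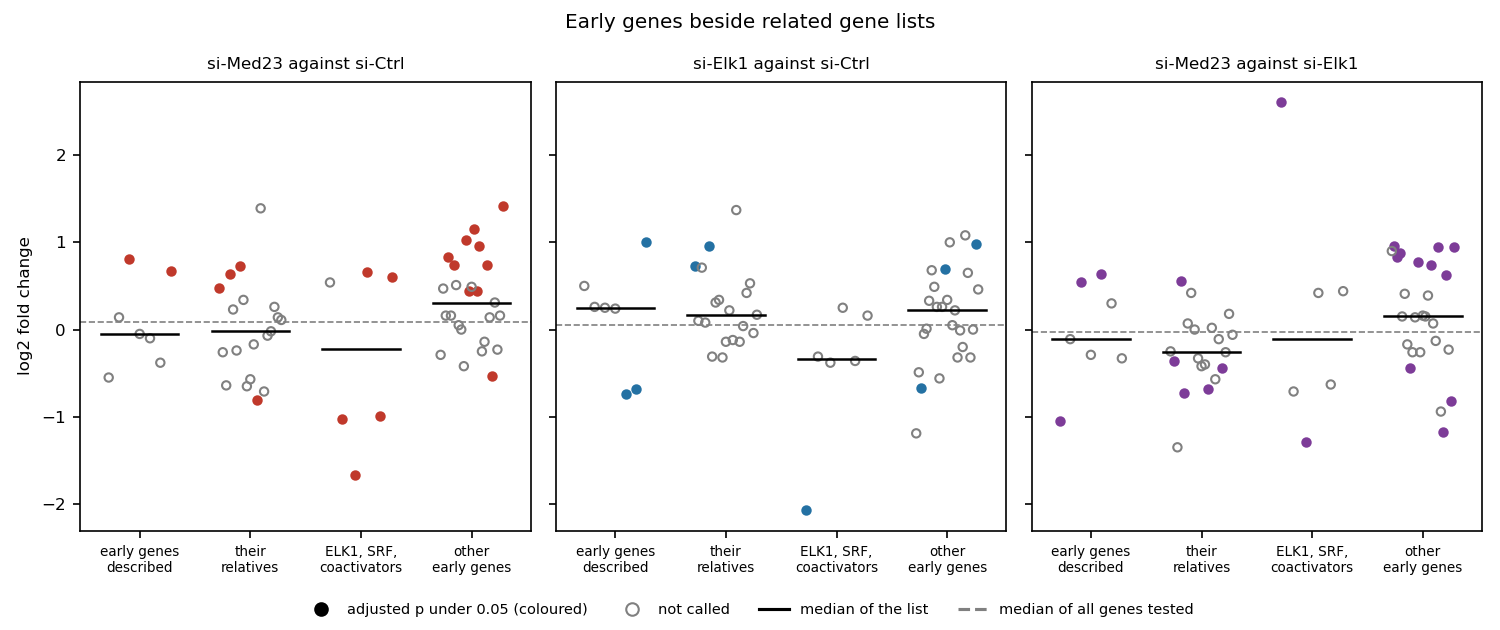
Log2 fold changes (y axis) of the 7 early genes and of 3 related gene lists (x axis) in the 3 comparisons, with filled points for an adjusted p under 0.05, a solid line for the list's median and a dashed line for the median of all genes tested. In si-Med23 the early genes centre on -0.05 and the other early genes on 0.31.

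The tested genes whose signals followed each early gene most closely over the 9 arrays were found by Pearson correlation, as a description in which the arrays share groups and scaling. IER3 was matched most closely by RETREG3, SNX12 and ATP6V0C (r = 0.990, 0.989 and 0.988). ZFP36 was followed by LRTOMT, SLC25A45 and FAM83H (0.972, 0.959 and 0.956), KLF4 by SH2D4A, ANKFY1 and MAGEA6 (0.958, 0.956 and 0.955) and KLF6 by NAT1, CLIP4 and OCLN (0.958, 0.95 and 0.945). KLF10 went with LINC00165, PRDM13 and FLI1 (0.969, 0.956 and 0.937), IER2 with DCP1B, LINC00475 and TRMT61A (0.935, 0.934 and 0.933) and EGR1 with SEZ6L, C16orf86 and PGM5-AS1 (0.932, 0.932 and 0.915). None of the 7 was among the closest genes of another.

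The direction of several genes depends on how the arrays are scaled. Taking the poly-A spikes as the scale shifts the log2 fold changes of all genes by -1.61 (si-Med23), -0.64 (si-Elk1) and -0.97 (between the knockdowns). The shifts are -0.50, -0.18 and -0.32 for the hybridization controls and 0.23, -0.13 and 0.37 for centring on array medians. In si-Elk1, ZFP36 was higher under each scaling (0.36 to 1.03, not passing with the poly-A spikes, adjusted p = 0.212), and KLF4 (-1.38 to -0.72) and KLF6 (-1.32 to -0.66) were lower under each. In si-Med23, IER3 was higher under all but the poly-A spike scaling, which gave -0.80, and with the hybridization controls it was 0.31 and no longer called (adjusted p = 0.112). ZFP36 in si-Med23 went from 0.90 with median centring to 0.17 with the hybridization controls (adjusted p = 0.473) and -0.95 with the poly-A spikes, and EGR1 was lower under each scaling (-2.16 to -0.32), called with the poly-A spikes and the hybridization controls (adjusted p = 1.20e-04 and 0.0185). With these scalings 94.3% and 44.5% of all genes were called in si-Med23. Between the knockdowns EGR1 stayed lower in si-Med23 (-2.02 to -0.69), though its call was lost with quantile normalization and median centring (adjusted p = 0.103 and 0.0801), and IER3 and KLF4 turned to -0.42 and -0.33 with the poly-A spikes and were 0.24 and 0.32, not called, with the hybridization controls. The share of calls over all genes that were higher was 51.0%, 72.1% and 44.0% in the 3 comparisons as deposited, 73.9%, 42.3% and 89.4% with median centring, 7.29%, 39.2% and 8.34% with the hybridization controls and 0.151%, 1.90% and 0.322% with the poly-A spikes.

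Differences between 2 genes on the same array do not move with a factor applied to the whole array, and these pairs were chosen after their values were seen, so they are given with no test. The log2 signal of ZFP36 minus that of KLF4 ran from -2.04 to -1.47 in si-Ctrl and from -0.51 to 0.23 in si-Elk1, a shift of 1.74, and minus that of KLF6 it shifted by 1.68. In si-Med23 the same differences shifted by 0.77, with an overlap, and by 1.05. The log2 signal of EGR1 minus that of IER3 ran from -7.14 to -6.03 in si-Ctrl and from -8.03 to -7.80 in si-Med23, a shift of -1.36, and it shifted by 0.25 in si-Elk1. So ZFP36 moved up relative to KLF4 and KLF6 in si-Elk1, and EGR1 moved down relative to IER3 in si-Med23, whichever such factor is used.

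**Figure D5:**
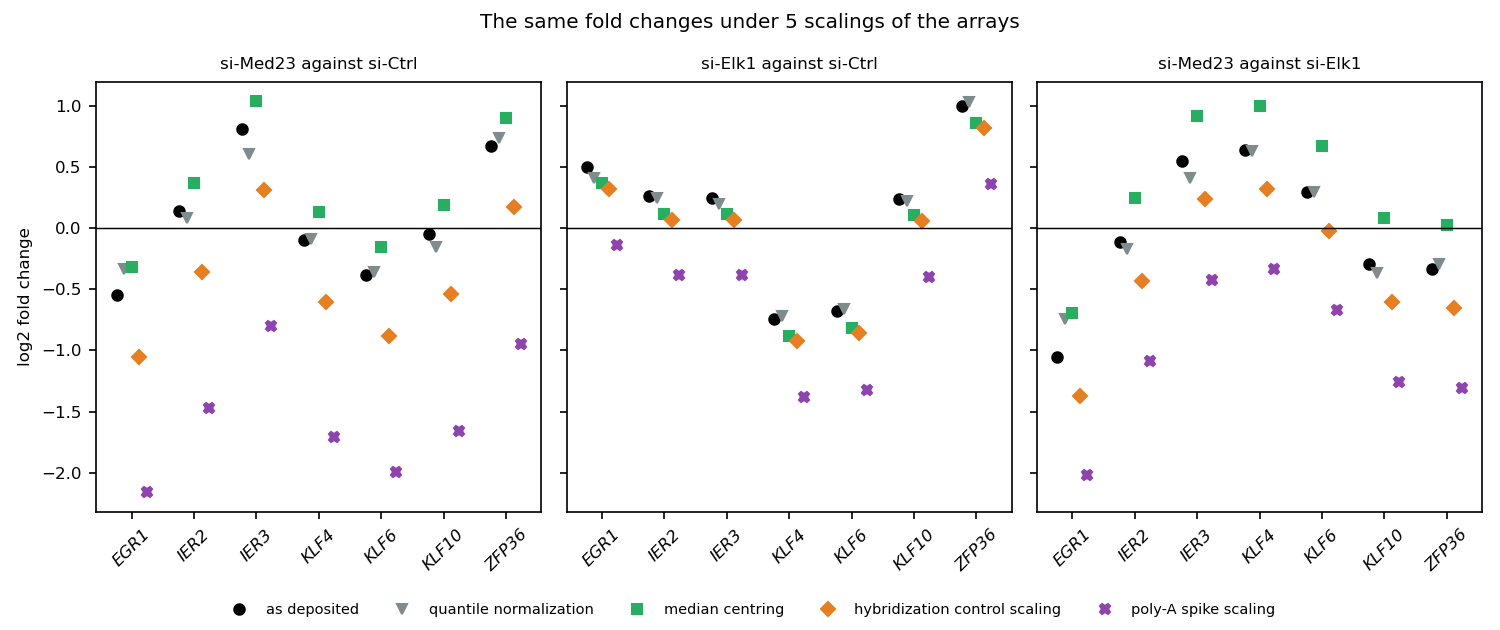
Log2 fold changes (y axis) of the 7 genes (x axis) in the 3 comparisons under 5 scalings of the arrays, each marker 1 scaling. Poly-A spike scaling puts all 7 genes below 0 in si-Med23 and all but ZFP36 (0.36) below 0 in si-Elk1. The distances between genes stay the same under the scalings that apply 1 factor to a whole array. Quantile normalization is not such a scaling: IER3 and EGR1 in si-Med23 are 0.61 and -0.33 with it, beside 0.81 and -0.55 as deposited.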

How the data were processed

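RNA was measured on 9 Affymetrix human arrays, 3 per group, with groups and replicate numbers taken from the sample labels. The authors deposited linear intensities, 1 per probe set and array. RMA and MAS5 are named with no role or version per the submitters' processing notes, and the equal 2% trimmed means of 500 are a property of the deposited values. A genome build for the arrays: not given in the sources used here. Median signals were 64.9 to 88.2 per array, and precision is limited by how few arrays there are.

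Signals were analysed as log2(value + 1). Names of probe sets come from the platform annotation, with identifiers looked up in RefSeq (0 symbols changed). Of the probe sets with exactly 1 gene, the one with the highest mean stood for each of 19775 genes, and the 12616 genes at or above log2 6.05 were tested, the middle of the probe set means (65.4 as a signal). Tests were two-sided moderated tests of limma 3.58.1 (R 4.3.3), all 9 arrays in 1 fit with no block, with Benjamini-Hochberg adjustment over all genes tested and a threshold of 0.05. Single probe sets were adjusted over all probe sets, with no filter. The fit was tested on simulated data. Intervals are 95%, and no 2 arrays were identical.

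The early genes, the related lists and the marker lists were chosen with earlier results of these data known. Named are the early genes, the targeted genes, up to 4 genes per list and comparison with the smallest p among those called (all of the list of ELK1, SRF and coactivators), and the 3 genes most correlated with each early gene. Alternatives covered the filter, the choice of probe set, the scaling, a pseudocount of 16, the samples in the fit, a block for the replicate number, weights per array, the variance prior, the threshold, raised dim signals and each array left out. Promoter sequences come from RefSeq, build GRCh38.p14. They were found for 5 of the 8 genes with a probe set.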

Additional observations from a re-analysis of the deposited data

Results flagged for a closer look

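Between the knockdowns 3 of the early genes differed by the limma contrast of si-Med23 with si-Elk1, which tests the difference between their effects against the same controls. Of all genes tested, 21.7% were called in this contrast (9.54% higher and 12.2% lower). EGR1 was lower in si-Med23 (log2 difference -1.05, adjusted p = 0.0336) in 3 of 3 arrays, and its change from si-Ctrl was negative in si-Med23 and positive in si-Elk1 with neither passing. IER3 was higher in si-Med23 (0.55, adjusted p = 0.0313), and so was KLF4 (0.64, adjusted p = 0.0327), each in 3 of 3 arrays. IER3 and KLF4 turned to -0.42 and -0.33 with the poly-A spikes and were not called with the hybridization controls. The EGR1 call was lost with quantile normalization and median centring. Groups of 3 arrays are too small for a test of single outlying arrays.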

How the results depend on the processing

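Of 543 results for the early genes under the alternatives, 427 kept their direction and their side of the threshold, 77 lost and 18 gained a call, and 21 changed sign. The fold change is the same by construction at the other thresholds, with no filter or a stricter one, with every probe set as a feature and with the block. The same holds for a fit of only the arrays compared, for the other variance prior and without an array of the third group. In these settings only the call can move, so the 427 do not measure how stable the directions are. Signs turned mostly with scaling. With the poly-A spikes IER2, IER3 and ZFP36 became -1.47, -0.80 and -0.95 in si-Med23, EGR1, IER2, IER3 and KLF10 became -0.14, -0.38, -0.38 and -0.40 in si-Elk1, and IER3, KLF4 and KLF6 became -0.42, -0.33 and -0.67 between the knockdowns. With the hybridization controls IER2 became -0.36 in si-Med23 and KLF6 -0.02 between the knockdowns. With median centring KLF4 and KLF10 became 0.13 and 0.19 in si-Med23, and IER2, KLF10 and ZFP36 became 0.25, 0.08 and 0.03 between the knockdowns. In si-Med23 KLF4 became 0.16 when its probe sets were averaged. With any array left out it ran from -0.27 to 0.06 there, and KLF10 from -0.13 to 0.05, above 0 without oligo C and, for KLF10, at 0.02 without si-Ctrl replicate 1.

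The 2 calls in si-Med23 became 1 with no filter, 1 with every probe set as a feature, 1 at a threshold of 0.01, 4 with the hybridization controls and 7 with the poly-A spikes (all lower in these last settings), and 1 to 2 with any array left out. Over all genes 44.5% were called in si-Med23 with the hybridization controls and 94.3% with the poly-A spikes, nearly all lower. The 3 calls in si-Elk1 became 0 with no filter, 0 with every probe set as a feature and 0 at a threshold of 0.01, each with 3 at an unadjusted limma p under 0.05. They became 1 with probe sets averaged, 1 without _x_at and _s_at probe sets and 0 to 2 with any array left out. The 3 calls between the knockdowns became 0 with no filter, 0 with every probe set as a feature and 0 at 0.01, again with 3 at an unadjusted limma p under 0.05, 1 in a fit of only the 6 arrays compared, 5 with the poly-A spikes (all lower) and 0 to 3 with any array left out. They were 4 with the hybridization controls, all lower, and 3 with median centring, all higher. Over all genes 81.3% were called between the knockdowns with the poly-A spikes, 34.1% with the hybridization controls and 41.5% with median centring. With no filter, all genes called in si-Elk1 went from 4.26% to 0.602%, and the cause of the lost calls was not tested. Arrays with the same replicate number had correlations of -0.18 to 0.05 between their deviations from the group means. With 3 arrays per group, and an oligo of its own on each knockdown array, these values cannot show whether same-numbered arrays share a batch. With that replicate number as a block, calls were 2 in si-Med23, 1 in si-Elk1 (ZFP36, with KLF4 at an adjusted p = 0.0702 and KLF6 at 0.106) and 2 between the knockdowns (without IER3, 0.0776). EGR1 lay near the filter level and EGR3 below it.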
